A study of Mus musculus with 18 samples.

Results

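The genes described here build the contractile apparatus of heart muscle and buffer its energy supply. They were 33 genes chosen by name, taken from the sarcomere, the Z disc and costamere, the creatine kinase system, oxygen storage and glycolysis in muscle. A gene was measured by array probe sets annotated to its symbol alone, and 32 of the 33 had one, among 18193 genes with a probe set. Xirp2, which encodes an actin-binding protein of the intercalated disc, had none under that symbol and was not analysed here. The 32 genes had 62 probe sets, and each gene was represented by the brightest of its probe sets on average. By role, 7 belong to the thick filament and M band, 7 to the thin filament, 12 to the Z disc and costamere and 4 to the energy buffer. The remaining 2, Myl4 and Myl7, are light chains of atrial muscle and were kept apart as a sign of how much atrium a sample held.

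Hearts came from control mice and from mice deficient in Kir6.1, which Kcnj8 encodes and which forms the pore of an ATP-sensitive potassium channel. They were taken 3 h after PBS, 30 min after lipopolysaccharide (LPS, bacterial endotoxin) or 3 h after LPS, in 6 groups of 3 arrays each, and the dose was 0.5 µg of LPS given in PBS. The labels give no strain, age or sex, and do not say whether the deficiency spans the whole body or whether controls carry any allele. Heart RNA was hybridized to 18 single-colour Affymetrix mouse arrays. Values are log2 signals after RMA, and changes are log2 differences with the standard error (SE) of a limma fit across all 45037 probe sets. A gene is said to rise or fall only where its p-value, adjusted by Benjamini-Hochberg over all probe sets, was under 0.05. In heart tissue, fewer cells of a type and less RNA per cell cannot be told apart.

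In a cardiomyocyte, thick filaments of myosin slide along thin filaments of actin, which are anchored at the Z disc, while the giant protein titin runs from the Z disc to the M band and acts as a spring. Costameres couple the outermost Z discs to the cell membrane. Creatine kinase moves high-energy phosphate between mitochondria and myosin, and myoglobin stores oxygen. Atrial and ventricular muscle use different myosin light chains, so the light chains tell the chambers apart.

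Kcnj8 lay between 4.35 and 5.36 on the mutant arrays and between 8.35 and 8.90 on the control arrays, so no mutant array reached the lowest control array. Mutant LPS 3 h replicates 1 and 3 stood apart. They were the only arrays hybridized on the second of 3 days, and the difference between 3' and 5' signal of Gapdh and Actb, which rises when RNA is degraded or shortened, was 1.37 and 1.09 there against 0.13 to 0.44 on the other 16 arrays. Mutant LPS 3 h replicate 2, the PBS arrays and the control LPS 3 h arrays were hybridized on the first day, and the LPS 30 min arrays on the third. Results that rest on the second-day arrays are therefore given with and without them. Array lots also followed the groups, and the comparison of 30 min with PBS cannot be told apart from the day.

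Bases upstream of the start are shown for a pair of atrial light chain genes, which moved together across the arrays, and for Ttn and Myoz2. With all arrays Ttn and Myoz2 both fell in mutants 3 h after LPS. Without the second-day arrays their changes were -0.35 and -0.09. The sequences are the 250 bases before a RefSeq start of each gene in the mouse build GRCm38.p6, written 5' to 3' on the gene's strand. They are chr11:5898783-5899032 (minus strand) for Myl7, chr11:104550413-104550662 (plus strand) for Myl4, chr2:76982548-76982797 (minus strand) for Ttn and chr3:123034988-123035237 (minus strand) for Myoz2. Capitals mark matches, on either strand, to a CArG box (the site of serum response factor), a MEF2 site (the site of the MEF2 muscle factors), the TATA box letters TATAAA, the TEAD core, whose letters are CATTCC, or the GATA core, whose letters are GATAA. The base just before the start is numbered -1.
Myl7: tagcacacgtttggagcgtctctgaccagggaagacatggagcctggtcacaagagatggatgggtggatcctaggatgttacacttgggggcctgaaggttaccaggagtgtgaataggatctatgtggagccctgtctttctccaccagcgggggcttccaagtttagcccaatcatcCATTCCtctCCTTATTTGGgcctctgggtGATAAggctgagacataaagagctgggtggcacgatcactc
Myl4: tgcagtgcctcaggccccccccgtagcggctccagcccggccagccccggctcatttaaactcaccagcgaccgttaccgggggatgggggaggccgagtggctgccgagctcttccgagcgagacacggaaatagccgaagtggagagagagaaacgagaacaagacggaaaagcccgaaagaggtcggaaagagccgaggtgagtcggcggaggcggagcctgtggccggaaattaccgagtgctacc
Ttn: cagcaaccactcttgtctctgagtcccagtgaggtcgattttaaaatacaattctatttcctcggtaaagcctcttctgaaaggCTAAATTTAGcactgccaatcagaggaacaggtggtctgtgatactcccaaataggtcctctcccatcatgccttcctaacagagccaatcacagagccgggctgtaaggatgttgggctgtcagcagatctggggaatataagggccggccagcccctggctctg
Myoz2: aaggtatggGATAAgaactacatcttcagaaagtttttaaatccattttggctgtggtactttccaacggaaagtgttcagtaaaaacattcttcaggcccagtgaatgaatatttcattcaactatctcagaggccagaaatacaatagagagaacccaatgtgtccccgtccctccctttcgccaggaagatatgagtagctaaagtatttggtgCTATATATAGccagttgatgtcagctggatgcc
Myl7 held CATTCC at -70 to -65, a CArG box at -61 to -52 and GATAA at -41 to -37. Ttn held a MEF2 site at -166 to -157. Myoz2 held one at -33 to -24, and GATAA at -241 to -237. The Myl4 window held none of the 5 motifs. It lies inside the span of Myl4 (chr11:104546017-104587215), before a start within the gene. Bases before the outer end of Myl4 were not searched.

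Upstream windows were searched for 27 of the 32 genes, leaving out Cryab, Myom2, Myot, Tcap and Xirp1. A CArG box was found for 5 of the 27 (18.5%, against 1.4% of 27025 mouse windows), in Actc1, Ldb3, Myl3, Myl7 and Myom1. A MEF2 site was found for 5 (18.5%, against 3.01%), in Mybpc3, Myoz2, Pgam2, Synpo2l and Ttn. CATTCC was found for 7 (25.9%, against 12.6%), GATAA for 10 (37.0%, against 23.0%) and TATAAA for 0 (against 3504 of the 27025 windows). A match is a run of letters, not a measured binding site.

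Signals of the 32 genes had means from 7.80 (Myot) to 14.26 (Myl2) over the 18 arrays in a table whose highest value was 14.4. For 9 genes the mean was within 1 log2 unit of that highest value, where the effect of a saturating signal on changes was not tested. Over the 5 groups other than mutant LPS 3 h, the median within-group standard deviation (SD) was 0.057, against 0.077 over all probe sets with a mean of 10 or more. The SD was lowest for Myl3, the ventricular essential light chain, at 0.015. It was highest for the atrial light chains Myl4 and Myl7, at 0.48 and 0.43, and for the Z disc gene Myot, at 0.35.

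Outside the atrial pair, the brightest gene of each role had a narrow range. All of these but Csrp3 had a mean within 1 log2 unit of the highest value, where a saturating signal was not tested. Myl2, the ventricular regulatory light chain, lay between 14.21 and 14.32 on all 18 arrays and changed by between -0.07 and 0.05 in all 10 comparisons. Actc1, cardiac actin, lay between 13.73 and 14.12, with its 2 lowest values on the second-day arrays (13.73 and 13.74). Csrp3, the muscle LIM protein of the Z disc, lay between 13.13 and 13.50. Mb, myoglobin, lay between 13.99 and 14.28, again lowest on the second-day arrays. Some other genes ranged more widely, from 6.81 to 8.57 for Myot, from 10.18 to 11.57 for Nebl and from 11.67 to 13.14 for Ttn. The 2 lowest values of Nebl and of Ttn were again those of the second-day arrays. Xirp1, which is dim, lay between 8.29 and 9.06.

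In control hearts 3 h after LPS, none of the 32 genes rose or fell by limma's adjusted p, while 0.5% of all probe sets did, and 1 gene had an unadjusted p under 0.05. That gene was Xirp1, which encodes an actin-binding protein of the intercalated disc. It read 8.77, 8.77 and 8.93 after PBS and 8.29, 8.58 and 8.52 after LPS. Every LPS array was below every PBS array, and the change was -0.36 (SE 0.10, limma adjusted p = 0.162).

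Small differences in controls mostly had a negative sign. Of the 32 changes 25 were negative, with a median of -0.04 against -0.02 over all probe sets, and centring each array on its median moved both, to 0.03 for the genes and 0.05 for all probe sets. For 9 genes every LPS array lay below every PBS array, where 10.7% of all probe sets did, and for 2 genes every LPS array lay above, where 8.23% did. Ttn, the titin gene, read 13.14, 13.08 and 13.14 after PBS and 12.84, 12.82 and 12.80 after LPS. The groups were apart, with tight replicates, yet the change of -0.30 (SE 0.17) did not pass (limma adjusted p = 0.577). Tcap, which encodes the telethonin cap of titin, was 0.25 higher (adjusted p = 0.479), and Mybpc3, cardiac myosin-binding protein C, was at -0.15 (adjusted p = 0.534).

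In mutant hearts 3 h after LPS, 9 of the 32 genes fell and 0 rose, and for 6 of the 9 the change was less than 0.5 as large without the second-day arrays. They were Ttn and Myom1 of the thick filament and M band, Tpm1 and Nebl of the thin filament, Myoz2, Ldb3 and Smpx of the Z disc, and the creatine kinases Ckm and Ckmt2. Of all probe sets 21.1% passed in this comparison and 13.1% fell, and of the 1802 other probe sets with a mean of 10 or more 29.1% fell. The 9 of 32 are close to the share among other bright probe sets. The median change was -0.16, against 0.07 over all probe sets, and 25 of the 32 changes were negative. For 14 genes every LPS array lay below every PBS array (12.9% of all probe sets), and for 0 above (15% of all probe sets).

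Ttn read 12.75, 13.01 and 13.13 on the mutant PBS arrays and 11.90, 12.61 and 11.67 on mutant LPS 3 h replicates 1 to 3. The second-day replicates 1 and 3 were far below the rest, and replicate 2 was also below every PBS array. The change was -0.90 (SE 0.17, 1.87-fold lower, limma adjusted p = 0.00351), and without the second-day arrays it was -0.35 (adjusted p = 0.089).

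Nebl encodes nebulette, which ties actin filaments to the cardiac Z disc. It read 11.04, 11.40 and 11.31 after PBS and 10.34, 11.28 and 10.18 after LPS. Only the second-day arrays were low, and replicate 2 lay inside the PBS range. The change was -0.65 (SE 0.20, limma adjusted p = 0.0308) with all arrays and 0.03 without the second-day arrays.

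Myoz2, calsarcin 1, which tethers the phosphatase calcineurin to alpha-actinin, read 13.12, 13.07 and 13.14 after PBS and 12.40, 13.01 and 12.39 after LPS. All LPS arrays were lower, the second-day ones by much more than replicate 2. The change was -0.50 (SE 0.12, limma adjusted p = 0.0126), and -0.09 without the second-day arrays.

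The muscle creatine kinase gene Ckm read 13.38, 13.38 and 13.30 after PBS and 12.81, 13.28 and 12.82 after LPS. Replicate 2 lay just below the lowest PBS array, and the second-day arrays far below it. Its change was -0.38 (SE 0.11, limma adjusted p = 0.0206), and -0.07 without the second-day arrays. Ckmt2, the creatine kinase of heart mitochondria, read 13.15, 13.22 and 13.24 after PBS and 12.89, 12.93 and 12.70 after LPS. Here replicate 2 was close to the second-day replicate 1, and all 3 arrays were clearly below the PBS arrays. The change was -0.36 (SE 0.081, limma adjusted p = 0.00807), and -0.27 without the second-day arrays (adjusted p = 0.088).

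Tpm1, the alpha-tropomyosin that covers the myosin sites of actin, read 13.94, 13.997 and 13.92 after PBS and 13.45, 13.90 and 13.58 after LPS. The second-day arrays carried the change of -0.31 (SE 0.095, limma adjusted p = 0.0318), which was -0.05 without them. The last 3 genes were Ldb3 (-0.29), whose PDZ and LIM protein binds alpha-actinin, Myom1 (-0.28), a myomesin that links thick filaments at the M band, and Smpx (-0.22), a small X-linked muscle protein. Without the second-day arrays Ldb3 was at -0.08, whereas Myom1 and Smpx were at -0.29 and -0.21, close to their values with all arrays (adjusted p = 0.129 and 0.188).

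The other 21 genes outside the atrial pair did not pass. In the thick filament and M band all 7 changes were negative, with -0.22 for Mybpc3 (limma adjusted p = 0.060), and -0.06 for Myl3 and -0.05 for Myh6. In the thin filament all 7 were negative as well, with -0.21 for Actc1, -0.16 for Tnni3 and -0.11 for Tnnc1, cardiac troponin C. Without the second-day arrays Nebl and Lmod2 of the thin filament were positive, at 0.03 and 0.12. Actc1, Tnni3 and Mybpc3 were then at -0.08, -0.06 and -0.11, and Tnnc1, Myl3 and Myh6 at -0.14, -0.10 and -0.21. With all arrays 8 of the 12 Z disc and costamere genes were negative, such as Actn2 at -0.20 and Des, the desmin of intermediate filaments, at -0.16. The other 4 were positive, Flnc, Tcap, Xirp1 and Cryab.

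Among these positive members Flnc, the filamin that crosslinks actin at the Z disc and membrane, read 9.57, 9.68 and 9.66 on mutant PBS arrays and 10.17, 9.39 and 9.95 on mutant LPS 3 h arrays. Replicate 2 lay on the other side of the PBS arrays from the second-day pair, and the change of 0.20 turned to -0.24 without that pair. Pgam2, the muscle phosphoglycerate mutase of glycolysis, was the 1 energy gene with a positive change, at 0.11. It read 13.06, 12.96 and 12.88 after PBS and 13.13, 12.86 and 13.25 after LPS, and was at -0.11 without the second-day arrays. Cryab, the small heat shock protein that guards desmin and titin, was at 0.03, and at -0.11 without the second-day arrays.

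**Figure D1:**
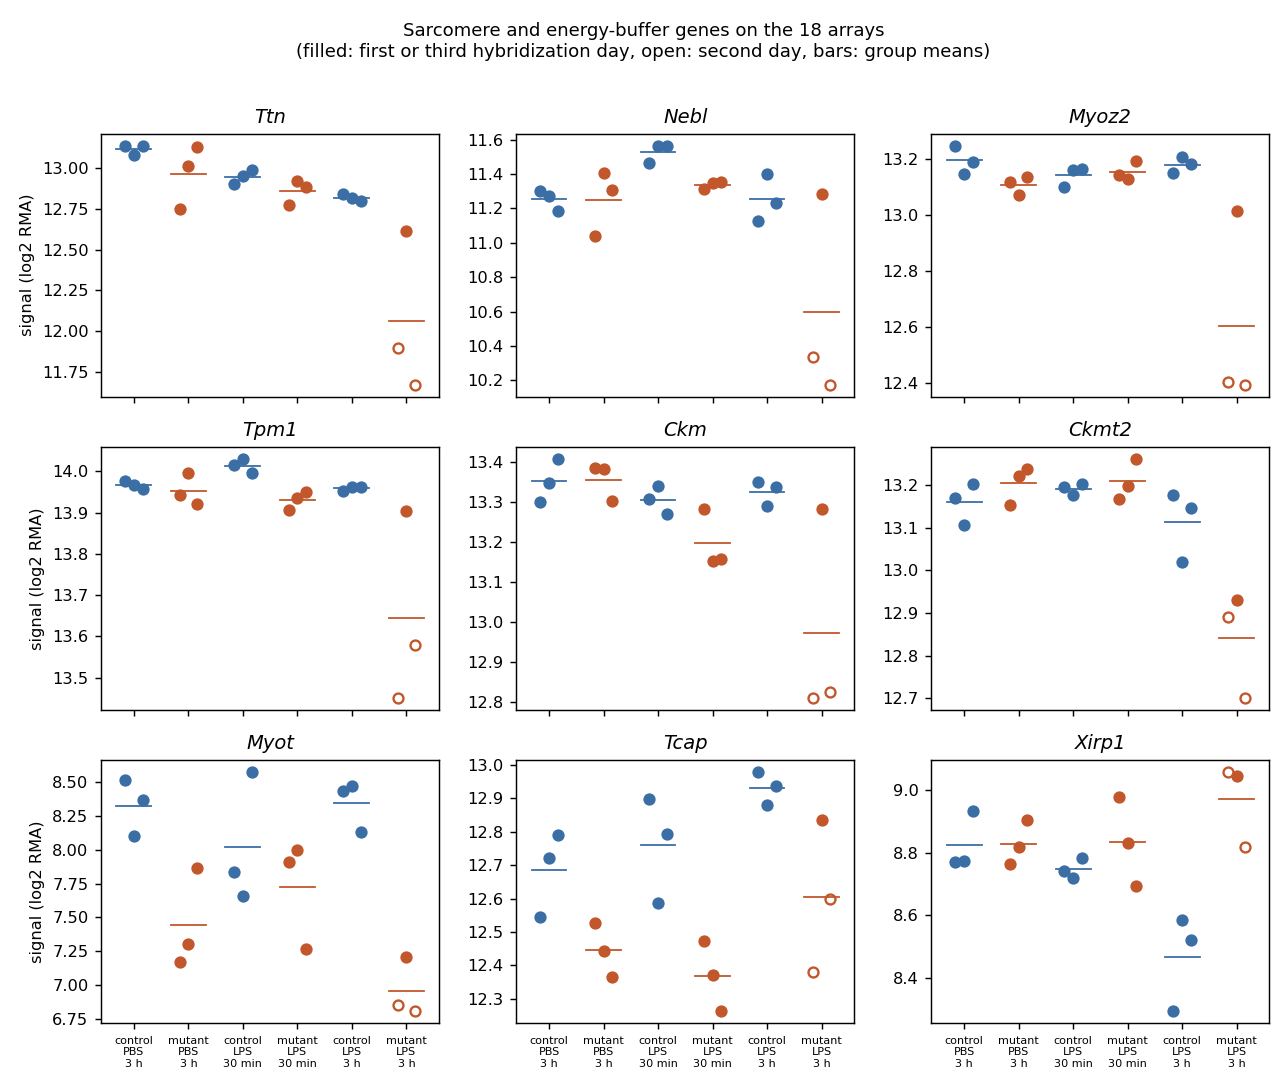
Log2 RMA signal (vertical axes, each with its own scale) of 9 genes on the 18 arrays, by group, with controls in blue, mutants in orange, bars for group means and open symbols for the arrays of the second hybridization day. In Nebl, Tpm1 and Ckm the open symbols lie below all other arrays, while in Tcap the mutants lie below the controls of the same condition throughout.

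The 3 mutant LPS 3 h arrays were also set one by one against the mean of the mutant PBS arrays. The median difference of the 32 genes was -0.11, -0.11 and -0.22 on replicates 1, 2 and 3, against 0.04, 0.00 and 0.09 over all probe sets. Of the 30 genes other than the atrial light chains, 22, 26 and 22 were negative. Replicate 2, the first-day array, was below every mutant PBS array for 23 of the 32 genes, where 35.6% of all probe sets were, and above every one for 3 (Lmod2, Tcap and Xirp1). Of the 9 genes that fell, 7 were among the 23, and of all probe sets that fell 75.3% were.

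**Figure D2:**
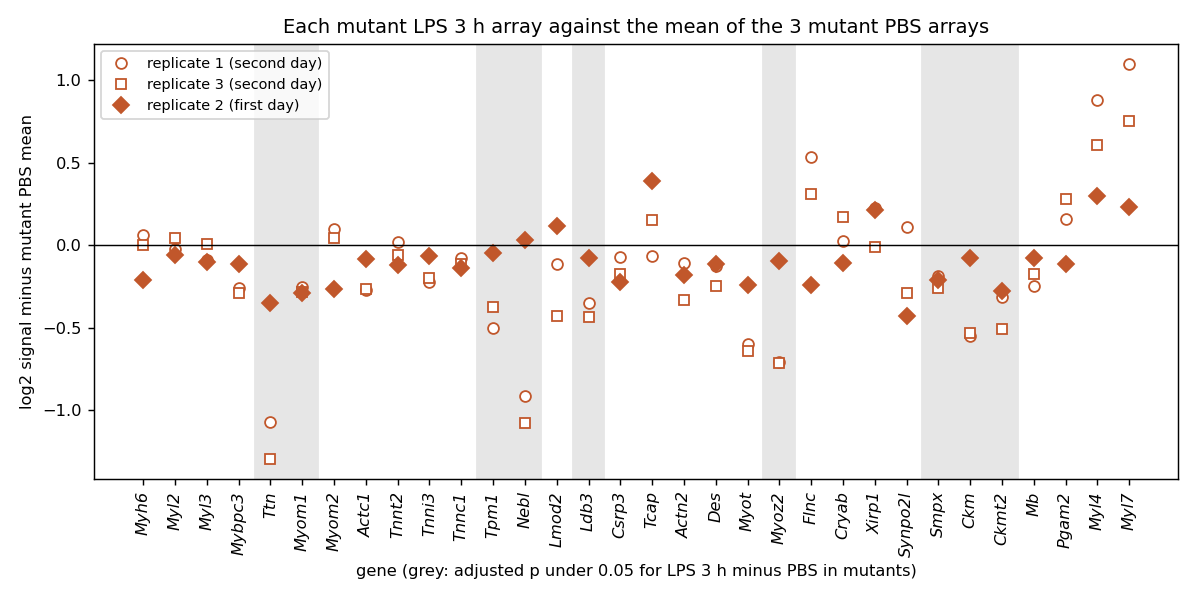
Difference of each mutant LPS 3 h array from the mean of the mutant PBS arrays (log2, vertical axis) for the 32 genes in role order, with open symbols for the second-day replicates 1 and 3, filled diamonds for the first-day replicate 2 and grey bands for the 9 genes that fell. Nebl, Tpm1, Myoz2 and Ckm show the diamonds near 0 and the open symbols well below, while Myom1, Smpx and Ckmt2 show all 3 symbols together.

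With the second-day arrays left out 0 of the 32 genes passed by limma's adjusted p, while 10.8% of all probe sets did, 5.71% as lower. In that fit 1 array stands for mutant LPS 3 h and is assumed to vary like the other groups. The count of 9 also moved with single arrays, to 16 without mutant LPS 3 h replicate 2, 2 without replicate 3, and 4, 3 and 4 without mutant PBS replicates 1, 2 and 3. For counts with 1 array left out, here and below, the share of all probe sets that passed is not given. Ttn and Ckmt2 kept their call whichever single array was left out.

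Between genotypes 3 h after LPS, Myot, Ttn, Nebl, Myoz2, Ckm, Tpm1 and Ckmt2 were lower in mutants, and Xirp1 was higher. The 7 lower genes stand against 10.5% of all probe sets that were lower and 30.2% of the other bright probe sets, and the 1 higher gene against 7.97% of all probe sets. In total 18.4% of probe sets passed. Mutant arrays were all below the control arrays for 11 genes (8.43% of all probe sets) and all above for 1 (9.21%).

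Myot encodes myotilin, which binds alpha-actinin and filamin C at the Z disc. It read 8.43, 8.47 and 8.13 in controls 3 h after LPS and 6.85, 7.21 and 6.81 in mutants. All 3 mutant arrays, replicate 2 included, were far below the controls. The difference was -1.39 (SE 0.24, 2.61-fold lower, limma adjusted p = 0.00541), and -1.13 without the second-day arrays (adjusted p = 0.077).

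Xirp1 read 9.06, 9.04 and 8.82 in the mutants, against the 8.29, 8.58 and 8.52 of the controls. Each mutant array was above each control array. The difference was 0.51 (SE 0.10, 1.42-fold, limma adjusted p = 0.00871). Without the second-day arrays it was 0.58 (adjusted p = 0.0248), and Xirp1 was the 1 gene of the 32 that still passed, where 4.21% of all probe sets passed and 2.73% were higher. With day as a block and on first-day arrays alone it was also 0.58 but did not pass (limma adjusted p = 0.060 and 0.094), nor did Myot at -1.13 (adjusted p = 0.118 and 0.073).

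The other 6 genes were also among the 9 that fell after LPS within mutants, a comparison that shares the mutant LPS 3 h arrays with this one. Their differences between genotypes were -0.76 for Ttn (SE 0.17), -0.65 for Nebl, -0.58 for Myoz2 (SE 0.12), -0.35 for Ckm, -0.31 for Tpm1 and -0.27 for Ckmt2. Without the second-day arrays they were -0.21, 0.03, -0.16, -0.04, -0.05 and -0.18, and none of the 6 passed by limma's adjusted p. Left-out single arrays moved the count of 8 to 4 without control LPS 3 h replicate 1 or 3, and to 5, 14 and 2 without mutant replicates 1, 2 and 3. Myot and Xirp1 kept their call whichever single array was left out.

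The difference between the LPS effects of the genotypes was tested directly, and 0 of the 32 genes passed by limma's adjusted p, where 0.104% of probe sets did and 7 of the genes had an unadjusted p under 0.05. Xirp1 had the smallest p, with an LPS effect 0.50 higher in mutants (SE 0.15, limma adjusted p = 0.108). Its level lay below its PBS range in controls and overlapped it in mutants. Next were Myoz2 and Ckmt2, at -0.49 and -0.32 (adjusted p = 0.141 each), and Ttn stood at -0.60 (adjusted p = 0.162). Without mutant LPS 3 h replicate 2, which leaves the second-day arrays alone in that group, 10 genes passed. The share of all probe sets that passed in that fit is not given here.

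Over the 3 conditions together, Myot and Tcap were lower in mutant hearts, where 0.957% of all probe sets were lower and 2.34% passed either way. After PBS, without LPS, Myot read 8.51, 8.10 and 8.36 in controls and 7.17, 7.31 and 7.86 in mutants. Mutants were lower without overlap, at -0.88 (SE 0.24), yet the single comparison did not pass over all probe sets (limma adjusted p = 0.464). At 30 min after LPS controls read 7.83, 7.66 and 8.57 and mutants 7.91, 7.99 and 7.26. Those groups overlapped, and the difference was -0.30. Averaged over the conditions Myot was -0.85 (SE 0.14, 1.81-fold lower, limma adjusted p = 0.00666), and -0.77 without the second-day arrays (adjusted p = 0.0186).

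Tcap showed a smaller difference that was present in each condition. After PBS it read 12.55, 12.72 and 12.79 in controls and 12.53, 12.44 and 12.37 in mutants. At 30 min it read 12.90, 12.59 and 12.79 in controls and 12.47, 12.37 and 12.26 in mutants. At 3 h after LPS it read 12.98, 12.88 and 12.94 in controls and 12.38, 12.84 and 12.60 in mutants. In GRCm38.p6 Tcap spans chr11:98383811-98384953 and Myot spans chr18:44334053-44355740. In all 3 conditions every mutant array of Tcap lay below every control array, which also held for Tnni3, cardiac troponin I, and for 0.377% of all probe sets. The averaged difference of Tcap was -0.32 (SE 0.068, 1.25-fold lower, limma adjusted p = 0.0228), and that of Tnni3 was -0.07 (adjusted p = 0.351). Left without the second-day arrays, Tcap was at -0.24 (adjusted p = 0.0502).

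Left-out single arrays took the limma adjusted p of Tcap to between 0.054 and 0.060 without control LPS 30 min replicate 1 or 3, control PBS replicate 2 or 3, or mutant LPS 30 min replicate 3, so that only Myot passed. The count rose to 10 genes without mutant LPS 3 h replicate 2, a fit for which the share of all probe sets is not given here.

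After PBS 0 of the 32 genes passed by limma (0.00888% of probe sets did, and 1 gene had an unadjusted p under 0.05), and at 30 min after LPS 0 passed (0.00888%, and again 1 gene). The genes with the smallest p were Myot after PBS and Tcap at 30 min, at -0.39 (adjusted p = 0.655). After PBS 4 genes were higher and 6 lower in every mutant array than in every control array (10.6% and 9.55% of all probe sets were), and at 30 min 3 and 7 (9.97% and 10.2%). At 30 min the 7 thin filament genes all had negative differences, from -0.03 to -0.19, and none passed.

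At 30 min after LPS the genes stood close to their PBS levels. In controls 0 of the 32 genes passed by limma, with 0 at an unadjusted p under 0.05, where 0.142% of probe sets passed, and the median change was 0.04. In mutants 0 passed, again with 0 at an unadjusted p under 0.05, where 0.0488% of probe sets passed, and the median was 0.00. Every 30 min array lay above every PBS array for 8 genes in controls (15.2% of all probe sets) and below for 3 (13.9%), and in mutants for 3 (12.7%) and 4 (12.1%). The smallest p in controls belonged to Actn2, sarcomeric alpha-actinin, at -0.17 (adjusted p = 0.608), and in mutants to Myl7, at 0.61 (adjusted p = 0.79). The difference of the 30 min effects between genotypes, a comparison added after the data were seen, passed for 0 of the 32 genes and for 0% of all probe sets.

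**Figure D3:**
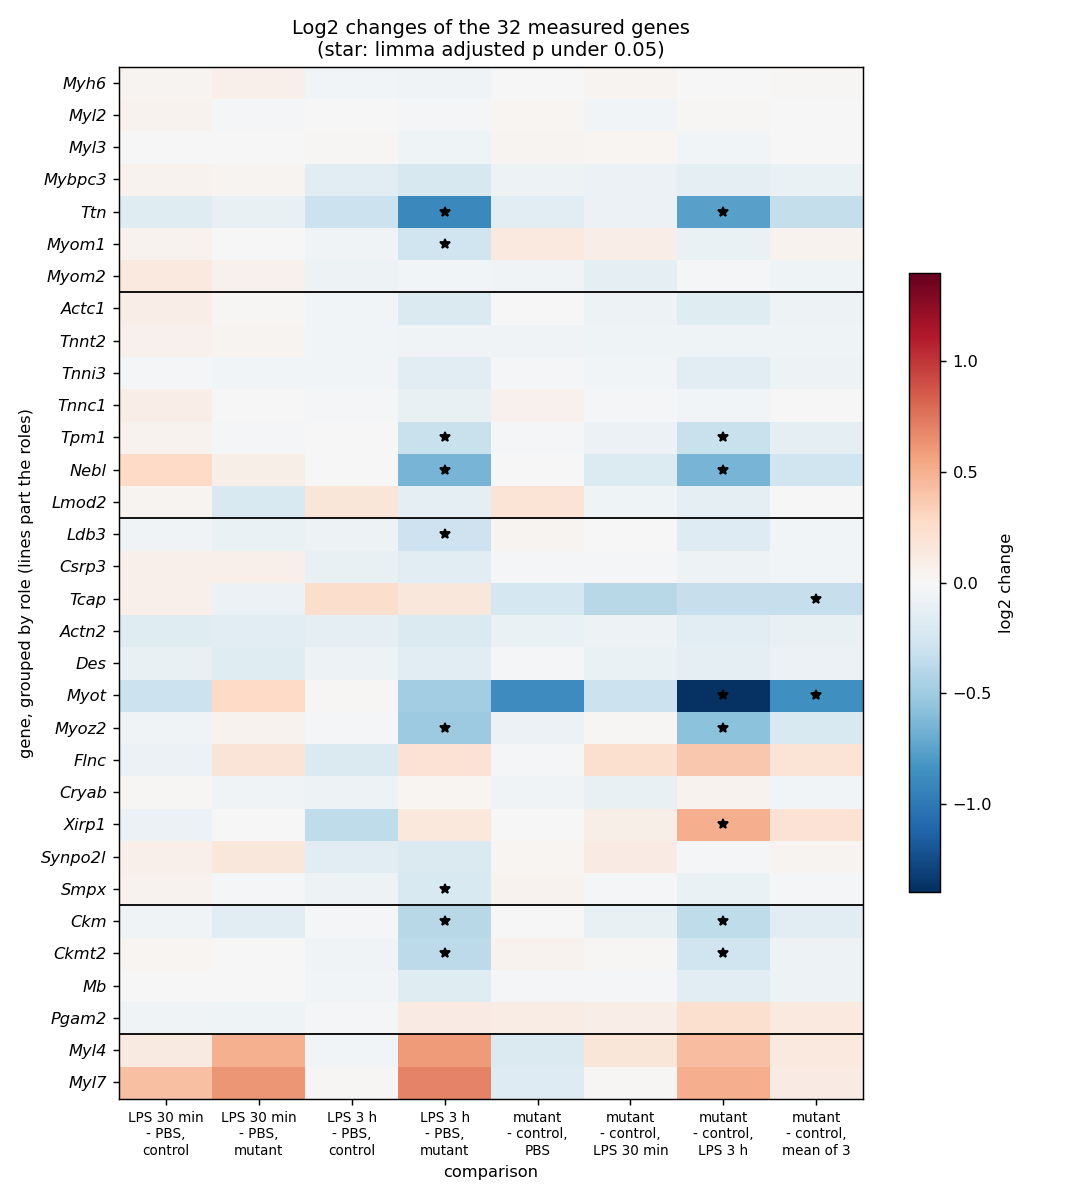
Log2 change (colour, blue lower, red higher) of the 32 genes (rows, in role order with lines between roles) in 8 comparisons (columns), with stars where limma's adjusted p was under 0.05. The stars fall in the 3 columns that use the mutant LPS 3 h arrays, 9 for LPS 3 h in mutants, 8 for genotype 3 h after LPS and 2, on Tcap and Myot, for the averaged genotype.

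The atrial light chains varied widely between arrays of the same group, and 0 of the 2 passed in any comparison by limma. Myl7 read 12.71, 12.64 and 11.99 on control PBS replicates 1 to 3, and 11.31, 12.80 and 12.71 on mutant PBS replicates 1 to 3. At 30 min after LPS it read 12.997, 12.73 and 12.89 in controls and 12.69, 12.93 and 13.04 in mutants. At 3 h it read 12.31, 12.43 and 12.65 in controls and 13.37, 12.51 and 13.03 in mutants. Mutant PBS replicate 1 was the lowest of the 18 arrays and control PBS replicate 3 the second lowest.

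Myl4 followed the same order. It read 12.51, 12.58 and 11.86 in control PBS hearts and 11.04, 12.67 and 12.63 in mutant PBS hearts. At 30 min it read 12.62, 12.24 and 12.48 in controls and 12.43, 12.66 and 12.75 in mutants, and at 3 h 12.15, 12.15 and 12.54 in controls and 12.998, 12.41 and 12.72 in mutants. The lowest and second lowest arrays were again mutant PBS replicate 1 and control PBS replicate 3, and the highest was mutant LPS 3 h replicate 1.

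Mutant PBS replicate 1 differed from the mean of replicates 2 and 3 by -1.61 for Myl4 and -1.44 for Myl7, but by -0.06 for the ventricular Myl2. Of 7 atrial marker genes 5 had their lowest value on mutant PBS replicate 1 and their second lowest on control PBS replicate 3. Beside the light chains these were Sln (10.67 and 11.02, against a median of 11.89), the sarcolipin that inhibits the calcium pump, Nppa (12.88 and 13.28, against 13.56), the atrial natriuretic peptide, and Mybphl (6.37 and 7.69, against 8.84), an atrial myosin-binding protein. The other 2, Bmp10 and Nr2f2, did not have that order. The share of atrium in each sample is not given in the sources used here, and its part in these values was not tested.

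This array enters the PBS side of the mutant comparisons. Myl4 and Myl7 were 0.60 (SE 0.33) and 0.70 (SE 0.31) higher 3 h after LPS in mutants, and did not pass (limma adjusted p = 0.198 and 0.121). Without mutant PBS replicate 1 they were 0.06 and 0.22 higher, and without the second-day arrays 0.30 and 0.24. Without mutant LPS 3 h replicate 2, Myl7 alone of the pair passed, at 0.93 (adjusted p = 0.0426).

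**Figure D4:**
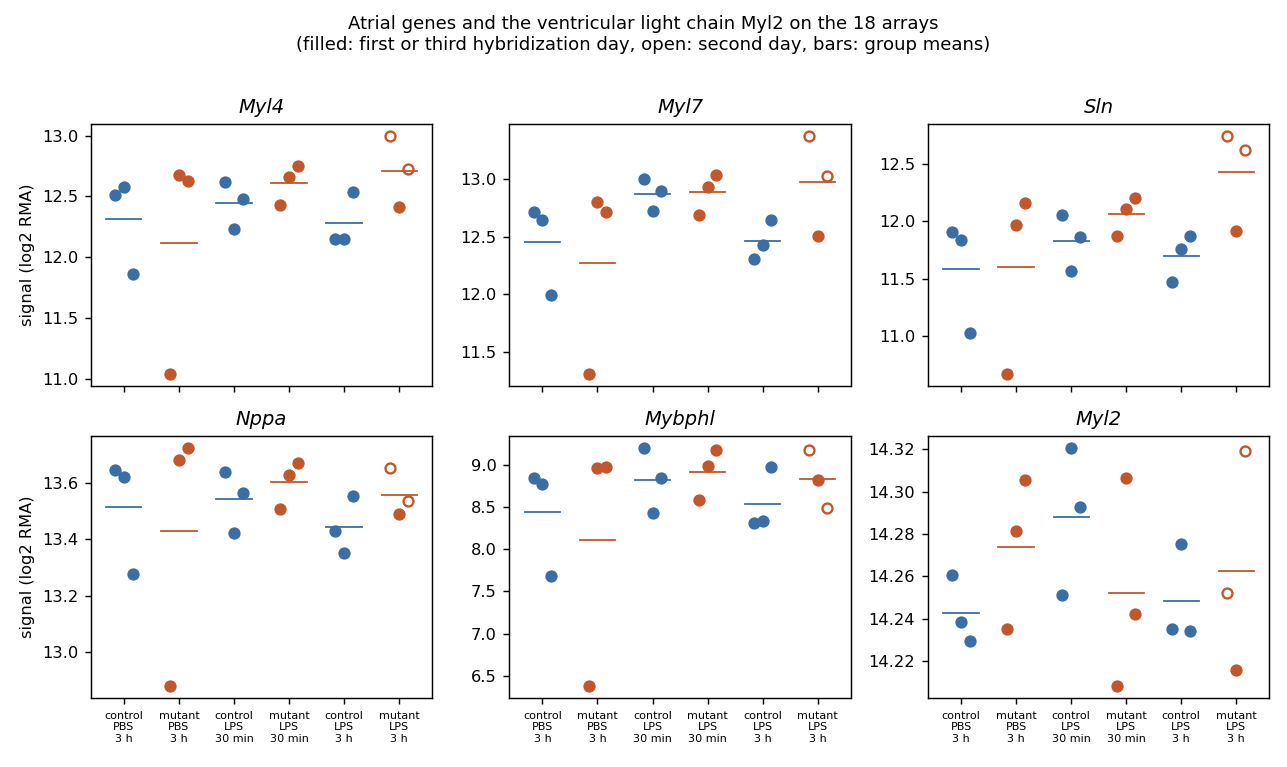
Log2 RMA signal (vertical axes, each with its own scale) of the atrial genes Myl4, Myl7, Sln, Nppa and Mybphl and of the ventricular Myl2 on the 18 arrays, by group, with bars for group means and open symbols for the second-day arrays. In the 5 atrial panels mutant PBS replicate 1 is the lowest point and control PBS replicate 3 the next, while the whole Myl2 panel spans 0.11.

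Several genes had probe sets that did not move together. Of the 32 genes 15 had 2 or more, and where the probes of each lie in the transcript was not examined here. Myh6, the alpha-myosin heavy chain of the adult mouse heart, shows the widest split. Its brighter probe set changed by -0.05 in mutants 3 h after LPS, and its dimmer one by -2.94 (SE 0.61, limma adjusted p = 0.00589). The dimmer probe set read 8.81, 8.77 and 8.66 on mutant PBS arrays and 4.39, 8.05 and 4.98 on mutant LPS 3 h replicates 1 to 3, so the low values were those of the second-day arrays, near the median of all probe sets (4.85), where a change is poorly measured. Without them the change was -0.70 and did not pass (limma adjusted p = 0.187), with replicate 2 still below every PBS array. It also read 7.15, 8.52 and 7.84 on mutant LPS 30 min arrays, against 8.68, 9.06 and 9.06 in controls.

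The dimmest of 3 Ldb3 probe sets was lower at 30 min after LPS in both genotypes, with changes of -1.03 in controls (SE 0.16, limma adjusted p = 0.0245) and -1.36 in mutants (adjusted p = 0.00563), while the probe set used here changed by -0.05 and -0.09. It read 9.03, 9.21 and 9.33 in control PBS hearts and 7.88, 8.14 and 8.46 at 30 min, and in mutants 9.04, 9.15 and 9.23 after PBS and 7.49, 7.82 and 8.02 at 30 min. The groups were fully apart in both genotypes, and all 30 min arrays were hybridized on the third day.

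Ttn, with 6 probe sets, had a similar split. The next brightest pair of its probe sets after the top pair changed by -1.20 and -0.999 at 30 min in controls and by -1.58 and -1.46 in mutants, with none of these past the threshold (limma adjusted p = 0.463, 0.542, 0.34 and 0.344). The probe set next to the one used changed by 0.05 and 0.02. In mutants 3 h after LPS, the 4 brightest Ttn probe sets changed by -0.90, -0.72, -1.27 and -1.43, of which the change of -1.27 did not pass. With the second-day arrays left out they were at -0.35, -0.01, -0.52 and -0.64, and none passed by limma's adjusted p.

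Other splits touched genes named above. For Nebl the dimmest of 3 probe sets had a mean of 4.62, below the median of all probe sets (4.85), where a change is poorly measured. The brightest and dimmest Nebl probe sets fell in mutants 3 h after LPS, with changes of -0.65 and -0.82, and the middle one was at 0.11. Left without the second-day arrays these were at 0.03, -0.56 and -0.23 in the same order, and none passed by limma. For Tpm1, with 4 probe sets, 3 fell, with changes of -0.31, -0.65 and -1.50, and the remaining one, the second brightest, was at -0.18. Left without the second-day arrays, the 3 were at -0.05, -0.03 and -0.01, while the remaining one was at -0.86 and passed (limma adjusted p = 0.00748). The dimmest Tpm1 probe set was also at -1.403 in controls 3 h after LPS, where it did not pass (adjusted p = 0.299). Of the 3 Ldb3 probe sets, which all fell, the middle one passed without the second-day arrays, at -0.51 (adjusted p = 0.0189). The dimmest of 3 Tnnt2 probe sets, for cardiac troponin T, was 1.53 higher in mutants than in controls 3 h after LPS (SE 0.38, limma adjusted p = 0.0159), where the probe set used here was at -0.06. It read 6.43, 6.21 and 6.28 in those controls and 8.49, 6.63 and 8.39 in the mutants, and without the second-day arrays the difference was 0.32 (adjusted p = 0.67). In controls this probe set was also at -1.61 3 h after LPS against PBS values of 8.27, 7.80 and 7.67, with the groups apart and an adjusted p of 0.081.

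**Figure D5:**
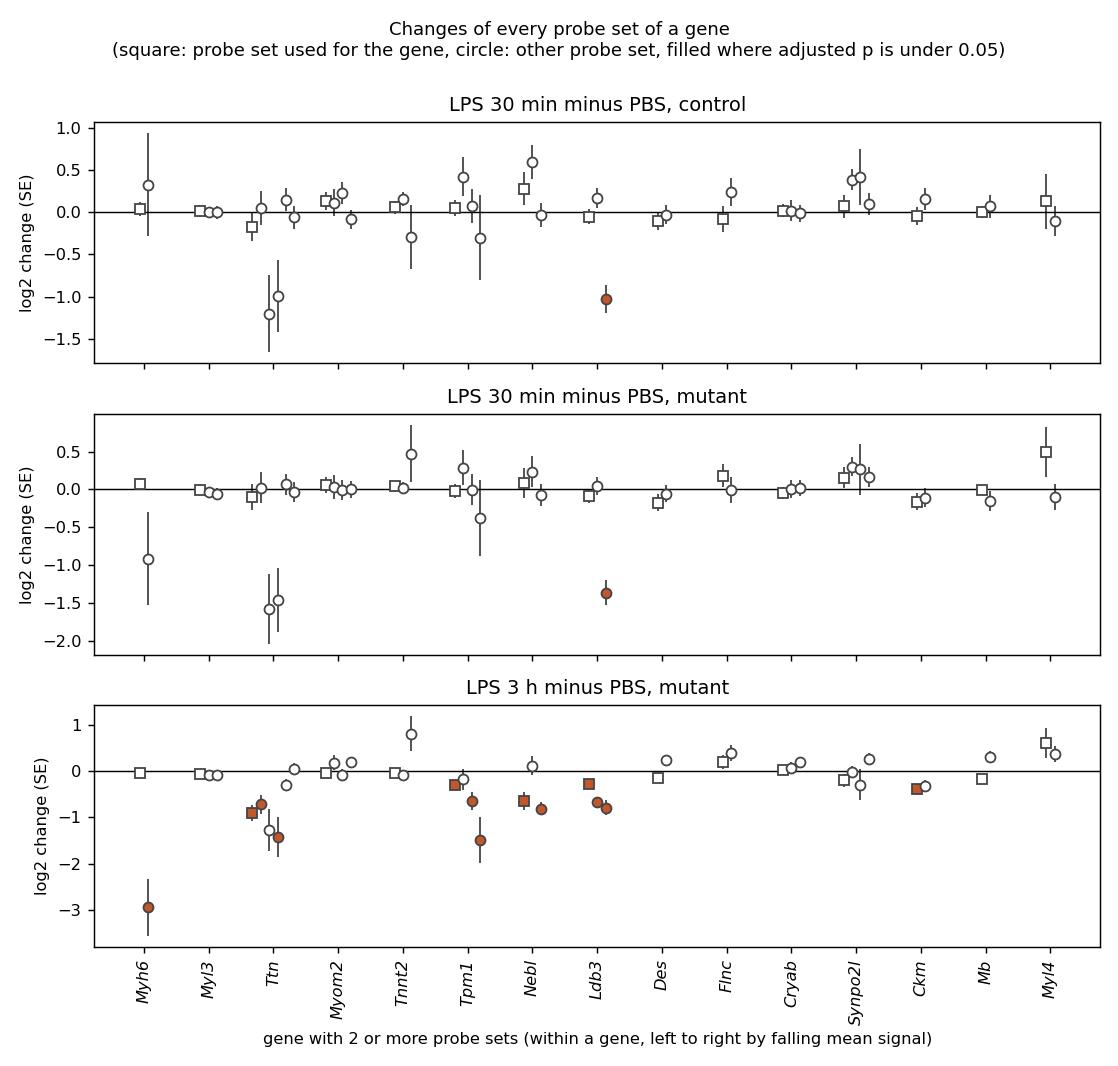
Log2 change with its SE (vertical axis) of every probe set of the 15 genes that have several, in 3 comparisons, with squares for the probe set used for a gene, circles for its others and filled symbols where limma's adjusted p was under 0.05. The dimmer Myh6 probe set lies at -2.94 in mutants 3 h after LPS beside a square near 0, and the dimmest Ldb3 probe set lies below -1 at 30 min in both genotypes.

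Neighbouring muscle genes were counted from lists of other sarcomere genes, genes of sarcomere assembly and turnover, other muscle energy genes and cardiac transcription factors. In control hearts 3 h after LPS none of the 34, 14, 17 and 12 measured members of these lists passed by limma, where 0.5% of all probe sets did. In mutants 3 h after LPS 13.1% of all probe sets fell and 7.99% rose, and 29.1% of other probe sets with a mean of 10 or more fell. Shares of all probe sets without the second-day arrays are given above. In mutants 3 h after LPS 3 other sarcomere genes rose and 10 fell, led by Dmd, dystrophin, at -2.01, Myh7, the beta-myosin heavy chain, at 1.41, Acta1, skeletal actin, at -1.07 and Ankrd1, a stretch-responsive ankyrin repeat protein, at -1.03. With the second-day arrays left out those 4 were at -0.26, 0.64, -0.88 and -0.06, and the median change of the 34 was -0.09. Klhl41, which did not pass with all arrays (-0.44, limma adjusted p = 0.0814), was then at -0.62.

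Of the assembly and turnover genes 1 rose and 5 fell, with the chaperone gene Hsp90aa1 at -1.72. Left without the second-day arrays Hsp90aa1 was at -0.15, and 0 passed as higher and 3 as lower. Of these 3 only Unc45b, the chaperone of myosin folding, was among the 5, at -0.35 with all arrays and -0.50 without the second-day arrays (limma adjusted p = 0.0141), while Smyd1 and Trim63 were at -0.59 and -0.45. Of the energy genes 5 fell, led by Gatm, which makes the creatine precursor, at -1.19. Without the second-day arrays 1 rose and 0 fell.

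Among the transcription factors 1 rose and 6 fell in mutants 3 h after LPS, and 2 of them, Myocd and Mef2c, also passed without the second-day arrays. Myocd encodes myocardin, the muscle partner of serum response factor, and Mef2c a MEF2 factor. Myocd fell by 1.31, and by 1.005 without the second-day arrays (limma adjusted p = 0.00589). Mef2c fell by 0.66, and by 0.41 without them (adjusted p = 0.0311). At 30 min Myocd was lower than after PBS in both genotypes, with changes of -1.47 in controls and -1.19 in mutants (adjusted p = 0.00388 and 0.0203), on the third-day arrays. In the averaged genotype comparison 3 other sarcomere genes were higher in mutants, Acta1 (0.62), Tpm2 (0.39) and Fhl1 (0.32), where 1.39% of all probe sets were. Without the second-day arrays these 3 were at 0.68, 0.24 and 0.23.

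Markers of other cells moved in the same mutant LPS 3 h comparison, in which 13.1% of all probe sets fell and 7.99% rose. Of 8 endothelial markers 6 fell and of 8 fibroblast markers 4 fell with all arrays, and 0 of either without the second-day arrays. The mean signal of the endothelial list was 8.04 to 9.07 on the mutant LPS 3 h arrays and 9.31 on each mutant PBS array, and that of the fibroblast list 9.49 to 10.13 against 10.21 to 10.37. Of 8 skeletal muscle markers 3 rose (Tnni2 at 1.12, Myh1 at 0.43 and Tnnt3 at 0.36), and 3 passed without the second-day arrays (Tnni2, Myh1 and Myh4, at 0.93, 0.48 and 0.58). The mean signal of the skeletal list was 4.79 to 5.19 on the mutant LPS 3 h arrays and 4.31 to 4.70 on all others. These means lie around the median of all probe sets (4.85), where a change is poorly measured. Of 4 ventricular markers the factor Irx4 alone fell, by 1.20, and it was at -0.90 without the second-day arrays. Myl2, Hey2 and Kcnip2 were at -0.01, -0.17 and -0.15 and did not pass. Without the second-day arrays they were at -0.06, -0.08 and 0.04. Of 5 lung markers 1 rose, and the list's mean was 4.77 to 6.04 on the mutant LPS 3 h arrays and 4.45 to 4.89 on all others. Its gene Scgb1a1 read 3.66 on mutant LPS 3 h replicate 1, 9.90 on replicate 2 and 8.80 on replicate 3. Of 3 adipocyte markers Adipoq rose by 2.61, and it and Cidec passed at 3.81 and 0.91 without the second-day arrays, with a list mean of 5.21 to 6.16 on mutant LPS 3 h arrays and 4.29 to 4.75 on mutant PBS arrays.

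Immune markers moved as well. Of 4 neutrophil markers S100a8 and S100a9 rose, by 3.09 and 3.15, and were at 1.22 and 1.48 without the second-day arrays, where neither passed. The neutrophil list's mean was 6.60 to 7.93 on mutant LPS 3 h arrays and 5.34 to 6.29 on mutant PBS arrays. Of 7 macrophage markers Mrc1 rose with all arrays, and Mrc1, C1qa and C1qb passed without the second-day arrays, at 0.53, 0.55 and 0.60. The macrophage list's mean was 8.12 to 8.46 against 8.04 to 8.24. Of 8 smooth muscle and pericyte markers, a list that holds Kcnj8 itself, Kcnj8 alone rose, by 0.81 within its low mutant range. Of 7 atrial markers Nr2f2 alone passed, and it fell by 0.85. Changes of the others were positive and did not pass. They were 0.60 for Myl4, 0.70 for Myl7, 0.83 for Sln, 0.73 for Mybphl, 0.17 for Bmp10 and 0.13 for Nppa. Without the second-day arrays Kcnj8 was at 0.77 and Nr2f2 at -0.28.

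Markers of other cells also differed in the averaged genotype comparison in which Myot and Tcap were lower. Of all probe sets 1.39% were higher in mutants there. Of 8 endothelial markers Tie1 was higher in mutants, by 0.49. Without the second-day arrays Tie1, Esam, Cdh5 and Tek were at 0.51, 0.50, 0.48 and 0.33. In that fit Egfl7, Kdr, Pecam1 and Emcn were at 0.36, 0.31, 0.15 and 0.13. After PBS the endothelial list's mean was 8.86 to 8.95 in controls and 9.31 on each mutant array, and at 30 min it was 9.03 to 9.22 and 9.32 to 9.56. Col3a1 of the fibroblast list was 0.39 higher (0.47 without the second-day arrays), with a list mean after PBS of 9.83 to 10.11 in controls and 10.21 to 10.37 in mutants. Pdgfrb of the smooth muscle and pericyte list was 0.74 higher (0.44 without the second-day arrays). The part of these markers in the results above was not tested.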

How the data were processed

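Heart RNA from 6 groups of 3 arrays was measured on 18 Affymetrix mouse arrays. The deposited values are log2 signals made with RMA, per the submitters' processing notes. The RMA version is not given in the sources used here. Medians of single arrays lay between 4.71 and 4.97 in the deposited log2 table. RMA compresses low signals, so changes of dim probe sets are understated. Hybridization day and array lot come from the text of the deposited experiment files, which hold no measurement.

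From 45101 probe sets, 64 that serve as Affymetrix controls were dropped. Gene symbols came from the platform annotation: 34945 of the 45037 tested probe sets carried 1 symbol, 932 several and 9160 none (0 symbols were updated). The brightest probe set on average stood for a gene. Promoter sequences are from RefSeq (GRCm38.p6).

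A model of 6 group means was fitted with limma 3.58.1 (R 4.3.3) to all arrays, with 12 residual and 3.83 prior degrees of freedom. There were 10 comparisons, of which the difference of the 30 min effects was added after the data were seen. Benjamini-Hochberg adjustment ran over all probe sets within a comparison, at a threshold of 0.05. The procedure was tested on simulated data. Tables and figures were made with Python 3.11.15, pandas 2.3.3 and matplotlib 3.10.9.

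The genes and the lists of neighbouring genes and cell markers were chosen with earlier results of these data known. Of 145 entries in 14 such lists, 139 had a probe set. Values are given on each array for up to 6 genes with the largest change in each direction among those past the threshold in a comparison, for the brightest gene of each role and for the atrial light chains. Genes past the threshold on other probe sets, and genes singled out for the signs of their changes, were chosen after their values were seen. From each list up to 4 genes past the threshold with the largest change are named.

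Whether each replicate number is another animal is not stated in the labels. The p-values therefore cover the spread among these 18 arrays alone, part of which may be technical. The number of arrays limits the precision. Other settings covered the probe set used, scaling, a filter on dim probe sets, array weights, the days, a covariate for the 3' to 5' difference, a replicate block and leaving out each array.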

Additional observations from a re-analysis of the deposited data

How the results depend on the processing

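Counts of the 32 genes past limma's adjusted p of 0.05 depended on the setting. Most are given without the share of all probe sets that passed in the same setting. For mutant minus control 3 h after LPS that share was 17.3% with arrays centred on their medians. Only 15 of the 32 genes have a second probe set, so counts with the second probe set cover those 15 alone. Myom1, Myoz2, Smpx, Ckmt2, Myot, Xirp1 and Tcap have 1 probe set each and could not pass in that setting. For LPS 3 h minus PBS in mutants the count of 9 became 3 with each gene's second brightest probe set, and 0 with only the groups compared, without the second-day arrays, with day as a block, on first-day arrays alone, or with the 3' to 5' difference as a covariate. For mutant minus control 3 h after LPS the count of 8 became 4 with the second probe set, 13 with arrays centred on their medians, 5 with array weights, 1 without the second-day arrays, and 0 with only the groups compared, day as a block, first-day arrays alone, or the covariate. For the genotype difference averaged over conditions the count of 2 became 0 with the second probe set, 8 with array weights, and 1 without the second-day arrays, with day as a block or with the covariate. Counts of 0 became 1 with array weights for LPS 3 h in controls and for genotype at 30 min, 1 with only the groups compared for LPS 30 min in controls and for genotype after PBS, and 3 with array weights for the difference of the 3 h effects. Leaving out 1 array gave 2 to 16, 2 to 14, 1 to 10 and 0 to 10 genes for these 4 comparisons in turn (LPS 3 h in mutants, genotype 3 h after LPS, averaged genotype, difference of the 3 h effects), and 0 for the others.

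Signs turned for Nebl in mutants 3 h after LPS (0.033 without the second-day arrays, with day as a block and on first-day arrays, and 0.11 with its second probe set) and for Nebl between genotypes at 3 h (0.032 in the same 3 settings, 0.029 with the covariate, and 0.10 with its second probe set). They also turned between genotypes at 3 h with the second probe set of Ckm (0.12) and Tpm1 (0.050). The causes were not tested, beyond the fewer arrays that some settings hold. Of 343 values of single genes under other settings 237 kept their direction and side of the threshold, 92 lost and 3 gained the call and 11 turned. With 1 array left out 155 of 210 kept both, 51 lost and 4 gained the call and 0 turned.

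Centring moved the median of all probe sets for the difference of the 3 h effects from 0.08 to -0.05. With the replicate number as a block the counts were 8, 8 and 2 for LPS 3 h in mutants, genotype at 3 h and averaged genotype, and 0 elsewhere. Between arrays with the same number, correlations of deviations ran from -0.316 to 0.359 over 45 pairs, with 10 over 0.1. Arrays with different numbers are not given for comparison, so these values cannot show whether the numbers mark a pairing. Day as a block was not run for 30 min against PBS, since day and time cannot be told apart there. On first-day arrays alone 1 mutant LPS 3 h array remains and is assumed to vary like the other groups.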
